A study of Mus musculus with 8 samples.

Results

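Mitochondrial ribosomal proteins were followed in CD103+ CD11b+ conventional dendritic cells (cDC), which carry antigen from the gut to the draining lymph nodes. Members were the genes with a symbol starting Mrps or Mrpl and then a digit, measured on probe sets whose platform annotation names exactly 1 gene. There were 71 of them among 22180 genes tested, 28 Mrps genes, named for the small ribosomal subunit, and 43 Mrpl genes, named for the large subunit. Members were chosen by symbol, and where a gene had more than 1 probe set, that with the highest mean value over the 8 arrays was selected. That choice was between 2 probe sets for 9 members, and it did not use the genotype. Another 7 genes of the family (Mrpl30, Mrpl33, Mrpl41, Mrpl43, Mrpl44, Mrpl53 and Mrps6) were only on probe sets that also name a second gene, and these are not members.

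The cells were sorted from mesenteric lymph nodes of male C57BL6 mice aged 8 weeks and kept on control chow. Of the 8 arrays, 4 came from mice carrying a human BCL2 transgene (hBcl-2) driven by the CD11c promoter, and 4 came from wild-type control littermates without it. BCL2 blocks the mitochondrial route to apoptosis, and the comparison asks what differs in cDC that carry the transgene. The CD11c promoter is active in many dendritic cells and some macrophages, so the transgene was not restricted to the sorted cells. RNA of 2 to 3 samples was pooled for each array, so a replicate is a pool, with n = 4 in each group. Which animals entered which pool is not stated, and p-values measure the spread between these pools.

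The mitochondrial ribosome makes the few proteins encoded by mitochondrial DNA, which are core subunits of the respiratory chain and of ATP synthase. Its ribosomal RNAs come from mitochondrial DNA, whereas all its proteins are encoded in the nucleus, made in the cytosol and imported. Many of these proteins have a counterpart in the bacterial ribosome, and the others are found only in mitochondria. The small subunit binds the messenger RNA and decodes it, and the large subunit forms the peptide bonds. Each value below is a deposited log2 value, and each difference is transgenic minus wild type on the log2 scale, tested with limma over all genes with Benjamini-Hochberg adjustment and a threshold of 0.05.

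The arrays were alike in their median over probe sets (5.04 to 5.15). Transgenic replicate 4 correlated less with its own group (mean r = 0.974) than the other transgenic arrays did (0.980 to 0.983) or the wild-type arrays with theirs (0.986 to 0.988). The SD over probe sets was 2.00 on that array and 2.07 to 2.11 on the others. Over brighter genes (mean of 6 or more) its median value lay 0.12 below the wild-type mean, while the other transgenic arrays lay 0.0017 to 0.038 above it. The defining cDC markers Zbtb46, Flt3, Itgax, H2-Ab1, H2-Aa, Ccr7, Irf4, Sirpa and Dpp4 were bright in both groups, with group means of 8.37 to 13.06, and 0 of these 9 passed limma. At an unadjusted p below 0.05, 3 were lower and 0 higher (6.60% and 6.56% of all genes). For 2 markers all transgenic arrays lay below all wild-type arrays (4.94% of all genes). Of the 9 markers 3 were positive and 6 negative, with a median difference of -0.11. Their mean level was 10.31 on transgenic replicate 4 and 10.63 to 10.76 on the other arrays. The transgene is human and the array is built for mouse genes, so the genotype was not checked by these values.

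Mrps35, a small subunit protein that occurs only in mitochondria, was the single member that passed the test, and it rose 1.90-fold in transgenic cDC. The wild-type arrays gave 6.42, 6.50, 6.18 and 6.13 in replicate order, and the transgenic arrays gave 7.10, 6.91, 7.30 and 7.64. All 4 transgenic arrays lay above all 4 wild-type arrays, with replicate 4 the highest. The means were 6.31 ± 0.18 and 7.24 ± 0.31 (SD, n = 4), a difference of 0.93 (SE 0.16, 95% interval 0.56 to 1.29, limma adjusted p = 0.0235). A two-sided exact permutation test of this gene alone gave p = 0.0286, the smallest that 70 assignments of the arrays allow. Any gene whose groups do not overlap gives this value, so it adds no support beyond that separation. The call was lost without wild-type replicate 1, 2, 3 or 4 (limma adjusted p = 0.0649, 0.0551, 0.0792 and 0.0703) or transgenic replicate 3 (0.0582), and it was kept without transgenic replicate 4 (difference 0.79, adjusted p = 0.0288). With no variance moderation it did not pass either (adjusted p = 0.135).

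Across the members, 1 of 71 rose, 0 fell and 70 did not pass limma, against 1.69% of all genes called in either direction (0.839% higher and 0.848% lower). A single call among 71 members is close to that background. At an unadjusted p below 0.05, 12 members were higher and 1 was lower, where the share over all genes was 6.56% higher and 6.60% lower. The groups did not overlap for 6 members: transgenic was higher for Mrps35, Mrps9, Mrpl51, Mrpl22 and Mrpl34 and lower for Mrpl4. Over all genes, 4.00% did not overlap with transgenic higher and 4.94% with transgenic lower.

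**Figure D1:**
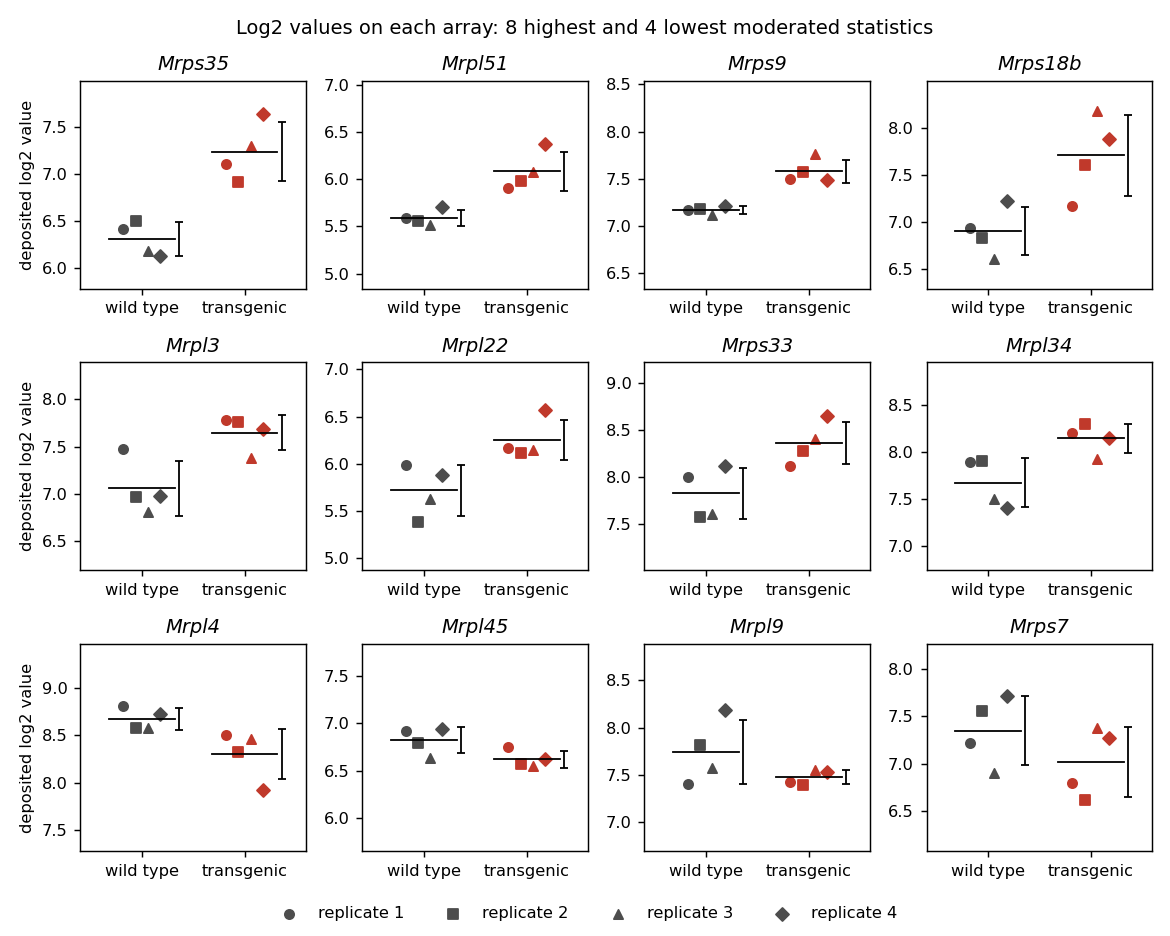
Deposited log2 values (vertical axes, each spanning the same range of 2.2 units) on the 4 wild-type and 4 transgenic arrays for 12 members, 8 from the top and 4 from the bottom of the order by moderated statistic; marker shape gives the replicate number, horizontal lines the group means and bars the SD. Mrps35 shows the only difference past the threshold, and Mrpl4 is the only member whose 4 transgenic arrays all lay below the wild-type arrays.

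Among the other small subunit proteins with bacterial counterparts, Mrps9 and Mrps18b had the highest moderated statistics. Mrps9, the counterpart of bacterial S9, gave 7.17, 7.19, 7.11 and 7.21 on the wild-type and 7.50, 7.57, 7.76 and 7.49 on the transgenic arrays. Its groups were separate and its wild-type spread was small (SD 0.041), but the difference of 0.41 (SE 0.10) did not pass limma (adjusted p = 0.0859). Mrps18b, 1 of the 3 genes related to bacterial S18, gave 6.94, 6.84, 6.61 and 7.23 in wild type and 7.17, 7.61, 8.18 and 7.88 in transgenic cells. Transgenic replicate 1 fell inside the wild-type range. The difference of 0.81 (SE 0.21) did not pass (limma adjusted p = 0.0955). It passed without transgenic replicate 1 (0.99, adjusted p = 0.0434). A dimmer probe set of Mrps18b was at 0.070 (SE 0.23), and the mean over its probe sets at 0.44 (limma adjusted p = 0.300). The related genes Mrps18c and Mrps18a were at 0.23 (SE 0.20) and -0.11 (SE 0.20).

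The mitochondria-specific small subunit proteins Mrps33 and Mrps31 came next. Mrps33 was at 8.00, 7.58, 7.61 and 8.12 in wild type and at 8.11, 8.28, 8.40 and 8.65 in transgenic cells, with only transgenic replicate 1 inside the wild-type range. The difference was 0.53 (SE 0.16, limma adjusted p = 0.151). Mrps31 was at 5.87, 5.77, 6.07 and 5.89 against 6.79, 6.60, 6.17 and 5.94. Replicates 1 and 2 of the transgenic group carried most of that difference of 0.47 (SE 0.18, limma adjusted p = 0.273). Mrps16, the counterpart of bacterial S16, gave 9.88, 9.27, 9.42 and 9.84 and then 9.90, 10.04, 9.65 and 10.88, with transgenic replicate 4 far above the rest. Its difference of 0.51 (SE 0.25, limma adjusted p = 0.422) was 0.26 without that array.

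The other 12 small subunit genes (Mrps17, Mrps5, Mrps22, Mrps28, Mrps26, Mrps11, Mrps34, Mrps12, Mrps18c, Mrps10, Mrps14 and Mrps23) all had positive differences, from 0.059 to 0.51. None passed limma (adjusted p 0.337 to 0.932), and 2 of them, Mrps17 and Mrps5, had an unadjusted p below 0.05. The shared sign of these 12 was fixed by their choice, since the 6 negative Mrps genes are all described apart. Mrps5, which lies by the entry of the messenger RNA channel, was at 6.76, 6.15, 6.29 and 6.76 in wild type and at 7.25, 7.39, 6.47 and 6.90 in transgenic cells, so that 1 transgenic array lay inside the wild-type range. Mrps12, the counterpart of the bacterial decoding protein S12, was at 0.23 (SE 0.19). Mrps14 had a mean of 4.55, below the median of all probe sets on every array, and was at 0.059 (SE 0.14). Mrps15 and Mrps21 were at 0.16 (SE 0.11) and 0.029 (SE 0.16), and Mrps15 was at 0.093 without wild-type replicate 3.

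Negative differences in the small subunit were small and none passed. Mrps7, the counterpart of bacterial S7, gave 7.22, 7.56, 6.90 and 7.72 in wild type and 6.79, 6.62, 7.38 and 7.27 in transgenic cells. The groups overlapped, with transgenic replicates 1 and 2 below every wild-type array, and the difference was -0.33 (SE 0.22, limma adjusted p = 0.594). Mrps25 (-0.23, SE 0.16) and Mrps27 (-0.24, SE 0.22), both mitochondria-specific, and the core proteins Mrps24 (-0.11, SE 0.15) and Mrps2 (-0.10, SE 0.14) overlapped as well. Single arrays weighed on these values: leaving out 1 array at a time gave -0.48 to -0.20 for Mrps7, -0.35 to -0.13 for Mrps25 and -0.22 to -0.024 for Mrps2. On Mrps27 the value of transgenic replicate 4 was 5.13, against 5.64 to 6.07 for the other transgenic arrays, and the difference without it was -0.048.

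Some Mrps names mislead about location. Mrps18a and Mrps30 proteins sit in the large subunit, and Mrps36 is a part of the oxoglutarate dehydrogenase complex of the citric acid cycle. These 3 genes had differences of -0.11, 0.0051 and 0.18, and none passed limma (adjusted p = 0.894, 0.993 and 0.622). Mrps36 was at 0.11 without transgenic replicate 4. The 95% interval of Mrps30 ran from -0.31 to 0.32. Leaving them out gave a small subunit median of 0.23, against 0.22 with them.

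In the large subunit 0 of 43 members passed limma. At an unadjusted p below 0.05, 5 were higher and 1 was lower (6.56% and 6.60% of all genes). Mrpl51, a mitochondria-specific protein, had the highest moderated statistic. It gave 5.59, 5.56, 5.51 and 5.71 on the wild-type and 5.90, 5.98, 6.07 and 6.37 on the transgenic arrays. The groups did not overlap, and the difference was 0.49 (SE 0.12, limma adjusted p = 0.0834). Mrpl3, whose bacterial counterpart L3 reaches towards the site of peptide bond formation, was at 7.47, 6.97, 6.81 and 6.98 and then at 7.78, 7.76, 7.37 and 7.68. Wild-type replicate 1 was above transgenic replicate 3, and the difference was 0.59 (SE 0.16, limma adjusted p = 0.106).

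Mrpl22, the counterpart of L22 in the wall of the exit tunnel, gave 5.99, 5.38, 5.63 and 5.88 in wild type and 6.17, 6.11, 6.15 and 6.57 in transgenic cells. These groups were separate by a narrow margin, and the difference was 0.53 (SE 0.16, limma adjusted p = 0.147). Mrpl34 was at 7.89, 7.90, 7.50 and 7.40 and then at 8.20, 8.29, 7.92 and 8.15. Again all transgenic arrays lay above all wild-type arrays, with replicate 3 only just so, and the difference was 0.47 (SE 0.15, limma adjusted p = 0.169). Mrpl36, a counterpart of bacterial L36, was at 8.17, 7.78, 7.95 and 8.20 against 8.16, 8.23, 8.44 and 8.65 (difference 0.34, SE 0.15, limma adjusted p = 0.340). Its transgenic replicate 1 lay inside the wild-type range.

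Mrpl4 stood at the other end of the large subunit. It gave 8.82, 8.58, 8.57 and 8.72 in wild type and 8.50, 8.33, 8.46 and 7.92 in transgenic cells, so its groups did not overlap. Transgenic replicate 4 was the lowest, and the difference of -0.37 (SE 0.14, limma adjusted p = 0.277) was -0.24 without it. Mrpl14 showed the same dependence: its transgenic replicate 4 was at 7.17 and its other 7 arrays at 7.89 to 8.49, so that the difference was -0.34 (SE 0.22) with and -0.12 without that array. Mrpl45, which anchors the ribosome to the inner mitochondrial membrane, was at 6.92, 6.79, 6.64 and 6.94 and then at 6.75, 6.56, 6.54 and 6.62 (difference -0.20, SE 0.11, limma adjusted p = 0.486). Mrpl9 was at -0.27 (SE 0.16), with wild-type replicate 4 at 8.18 and the other 7 arrays at 7.40 to 7.81, and the difference was -0.12 without that array.

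Large subunit genes with known further roles did not pass. Mrpl12, which binds the mitochondrial RNA polymerase, gave 6.87, 6.70, 6.36 and 7.10 and then 6.81, 7.17, 6.59 and 7.74. Both groups were spread widely, and the difference of 0.32 (SE 0.24, limma adjusted p = 0.650) was 0.10 without transgenic replicate 4. Mrpl58, a peptidyl-tRNA hydrolase that frees stalled chains, was at -0.12 (SE 0.17), at -0.0061 without transgenic replicate 4 and at -0.24 without wild-type replicate 3. Mrpl24, Mrpl52 and Mrpl54 were at 0.078 (SE 0.098), 0.073 (SE 0.17) and -0.18 (SE 0.28), and Mrpl24 was at 0.045 without wild-type replicate 4. The other 29 large subunit genes lay between -0.13 and 0.50, 25 positive and 4 negative, with limma adjusted p of 0.418 to 0.984. The genes with the highest and lowest statistics had been taken out of these 29. In the whole subunit 33 were positive and 10 negative.

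**Figure D2:**
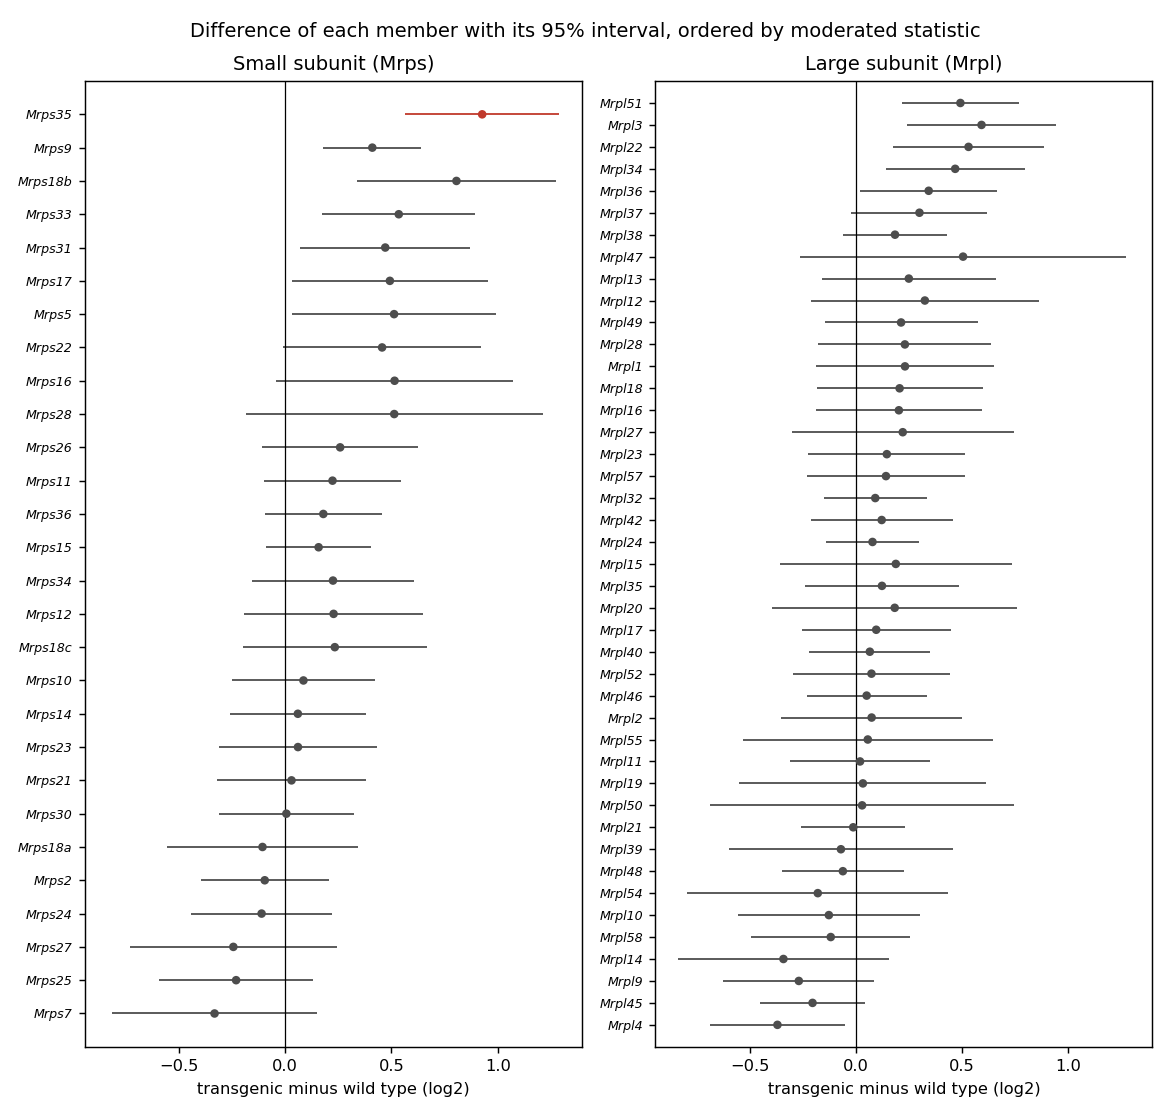
Difference between transgenic and wild type (horizontal axes, log2; points) with its 95% interval from limma (lines) for the 28 Mrps and 43 Mrpl genes, ordered by moderated statistic, with the gene past the threshold in red. The interval lies wholly above 0 for 7 Mrps and 5 Mrpl genes and wholly below 0 for Mrpl4 alone.

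For the 9 members with 2 probe sets, both probe sets were compared. They gave like differences for Mrps16 (0.51 and 0.50), Mrps5 (0.51 and 0.51), Mrpl36 (0.34 and 0.36), Mrpl12 (0.32 and 0.27), Mrps18c (0.23 and 0.29) and Mrps17 (0.49 and 0.37), the probe set used first. They disagreed for the other 3. Mrps18b was at 0.81 on the probe set used (mean over all arrays 7.31) and at 0.070 on the other (6.40). Mrpl47 was at 0.50 (mean 6.32) and 0.012 (mean 5.47), and on the first of these transgenic replicate 4 gave 7.64 and the other 7 arrays 5.78 to 6.76. Mrpl10 changed sign, from -0.13 (mean 7.51) to 0.36 (mean 6.16). None of the 18 probe sets passed limma when every probe set was tested on its own (adjusted p 0.0993 to 0.984).

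Small differences of one sign were more common than calls. Of the 28 Mrps genes 22 were positive, with a median of 0.22 (quartiles 0.023 and 0.48), and of the 43 Mrpl genes 33 were positive, with a median of 0.12 (quartiles 0.024 and 0.23). Over all genes tested 49.7% were positive and the median was -0.0016 (quartiles -0.13 and 0.13). Over the brighter genes, which held 61 of the 71 members, 48.6% were positive and the median was -0.0091. These are counts over genes measured on the same 8 arrays, and no test was made of them. The Mrpl values lay closer together than the Mrps values on the upper side, as the upper quartiles show.

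**Figure D3:**
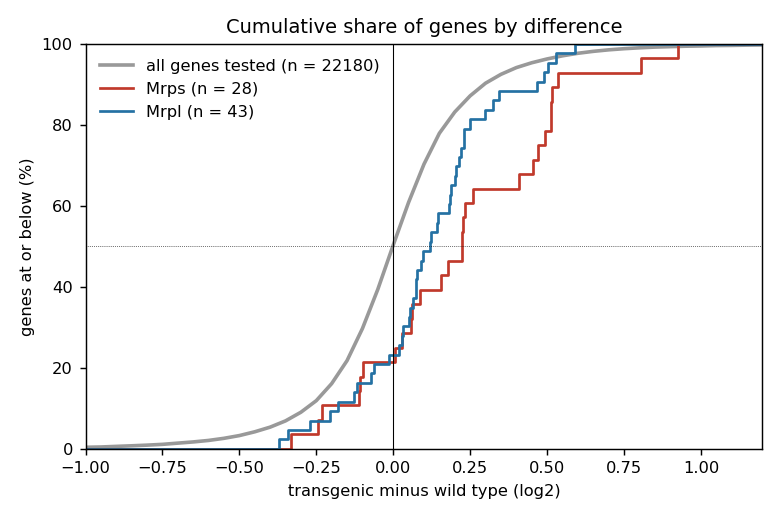
Cumulative share of genes (vertical axis, percent) at or below a given transgenic minus wild-type difference (horizontal axis, log2) for all 22180 genes, 28 Mrps and 43 Mrpl genes. The curves of both subunits cross 50% to the right of 0, at medians of 0.22 and 0.12, while that of all genes crosses at -0.0016.

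Split by role, the median difference was 0.22 in the 16 measured core proteins of the small subunit with bacterial counterparts (13 positive, 0 called) and 0.26 in its 9 mitochondria-specific proteins (7 positive, 1 called). In the large subunit it was 0.18 for 27 core proteins (22 positive) and 0.065 for 15 mitochondria-specific proteins (10 positive), with 0 called in either (unadjusted p below 0.05 in 4 higher and 1 lower core and in 1 higher mitochondria-specific protein by limma). Mrpl55 was put in neither group.

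The members also deviated together between arrays of 1 genotype. Wild-type replicate 3 was the lowest wild-type array for 39 of the 71 members and the highest for 4, and its median deviation from the wild-type mean was -0.16 over Mrps and -0.17 over Mrpl, against -0.0056 over all genes. Wild-type replicate 4 was the highest for 30 members. In replicate order, the median Mrps gene lay 0.081, -0.024, -0.16 and 0.084 from its wild-type mean on the wild-type arrays and 0.16, 0.23, 0.19 and 0.29 above it on the transgenic arrays. All 4 transgenic medians of the small subunit were thus above all 4 wild-type medians. For Mrpl these values were 0.077, -0.040, -0.17 and 0.12, and then 0.13, 0.21, 0.041 and 0.044. Here wild-type replicate 4 lay above transgenic replicates 3 and 4, so the 2 groups of medians overlapped. Separation was not particular to Mrps. Medians of the assembly factors of the mitochondrial ribosome were 0.095 to 0.20 on transgenic and -0.072 to 0.073 on wild-type arrays. Those of genes of mitochondrial transcription and RNA processing were 0.15 to 0.38 and -0.059 to 0.11.

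Single arrays weighed on these medians. Without wild-type replicate 3 the Mrps median fell to 0.12 with 19 of 28 positive, and the Mrpl median to 0.065 with 25 of 43 positive. Without transgenic replicate 4 they were 0.15 (22 positive) and 0.13 (31 positive). Leaving out transgenic replicate 2 gave 0.25 (21 positive) and 0.084 (27 positive). The median SD over members was 0.27 within the wild-type and 0.26 within the transgenic group, while over the brighter genes it was 0.17 and 0.24. Without transgenic replicate 4 the transgenic figures were 0.20 for members and 0.18 for those genes. Within the wild-type group the members were thus more widely spread than those genes.

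**Figure D4:**
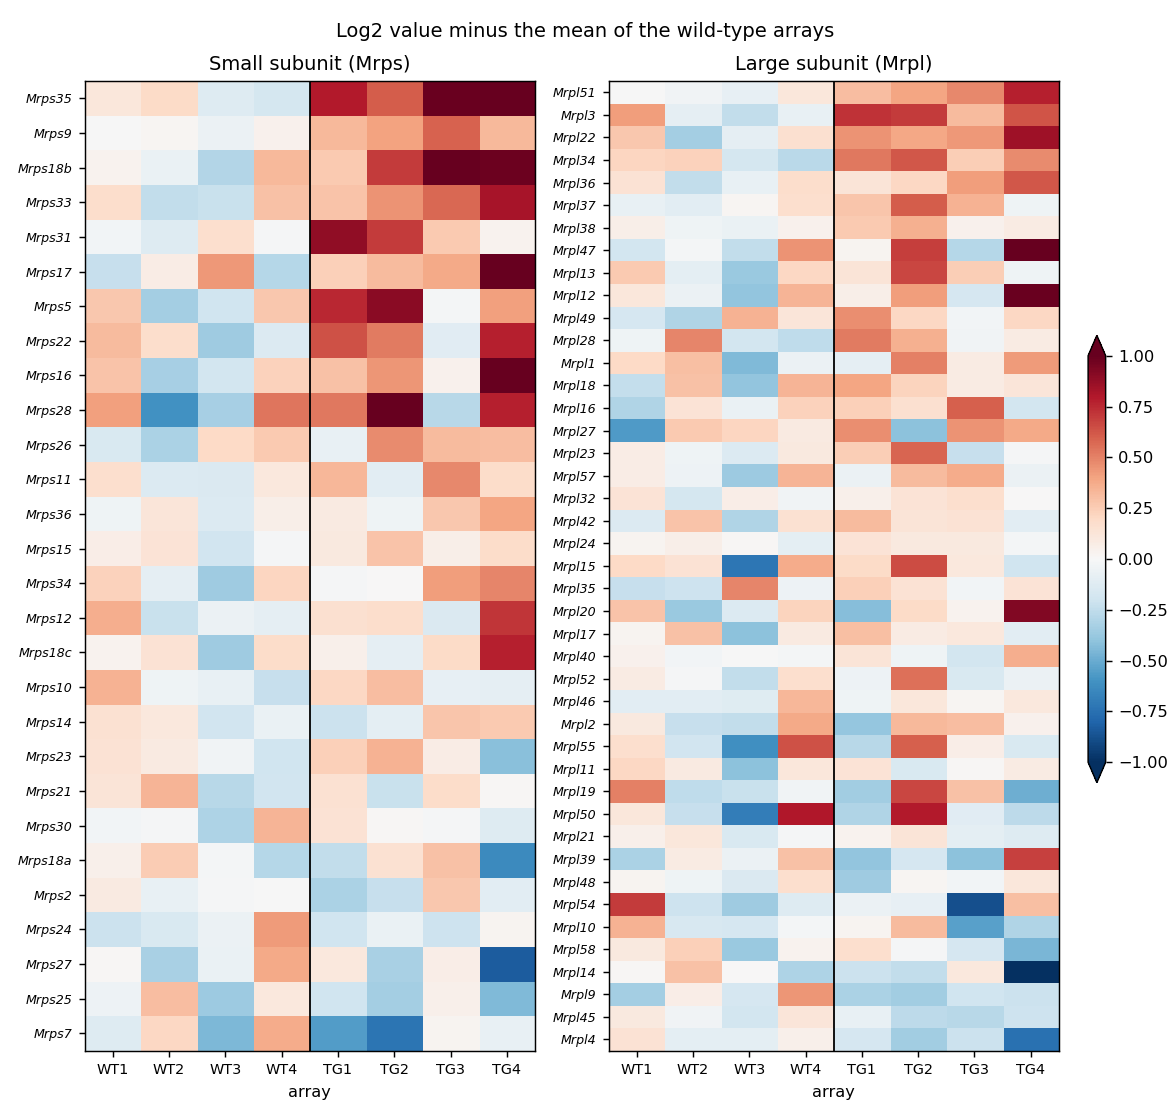
Log2 value minus the mean of the 4 wild-type arrays (colour, limited at -1 and 1) for every Mrps and Mrpl gene (rows, ordered by moderated statistic) on the wild-type (WT1 to WT4) and transgenic (TG1 to TG4) arrays, numbered by replicate. WT3 is mostly blue, being the lowest wild-type array for 39 of 71 members. Deviations from the mean of an array's own genotype, which are not the values drawn, were most widely spread on TG4. Their SD over members was 0.35 there, against 0.21 to 0.28 on the other arrays. Over all genes tested it was likewise widest on TG4 (0.32, against 0.19 to 0.25).

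Genes that serve the mitochondrial ribosome were examined as lists. Of the mitochondrial ribosomal proteins under other symbols, 3 were measured on probe sets naming 1 gene, and 0 passed limma (unadjusted p below 0.05 in 1 higher and 1 lower). Dap3, a small subunit protein that binds GTP and was first described as a mediator of cell death, was at 8.16, 7.94, 8.16 and 8.17 in wild type and at 7.54, 7.74, 7.76 and 7.37 in transgenic cells. Its transgenic arrays were all below its wild-type arrays, a difference of -0.50 (SE 0.12, limma adjusted p = 0.0760). Ptcd3, a small subunit protein with RNA-binding repeats, was at 0.39 (SE 0.16), and Gadd45gip1, in the large subunit, at -0.18 (SE 0.16).

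Of 34 measured assembly factors 0 passed limma, 28 were positive and the median was 0.18. At an unadjusted p below 0.05, 7 were higher and 0 were lower (6.56% and 6.60% of all genes). Afg3l2, an inner membrane protease that matures a large subunit protein, had the highest statistic (6.29, 6.26, 6.44 and 6.32 against 7.03, 7.55, 7.50 and 6.47, difference 0.81, SE 0.21, limma adjusted p = 0.0972). Dhx30, an RNA helicase, was at 0.46 (SE 0.14), and the lowest were Nsun4, a ribosomal RNA methyltransferase, at -0.36 (SE 0.17) and Noa1 at -0.19 (SE 0.13). Of 22 genes of mitochondrial transcription and RNA processing 0 passed limma (unadjusted p below 0.05 in 3 higher and 0 lower), 20 were positive and the median was 0.20. The transcription factor gene Tfb2m was at 8.61, 9.16, 9.17 and 8.96 and then at 9.54, 9.65, 9.72 and 9.46, so the groups were separate, with a difference of 0.62 (SE 0.14, limma adjusted p = 0.0627). Mterf1a was at 0.35 (SE 0.10), Fastkd3 at -0.075 (SE 0.15) and Fastk at -0.21 (SE 0.12).

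Of 17 translation factors and activators 1 rose, 0 fell and 16 did not pass (1.69% of all genes were called), with a median of 0.048. At an unadjusted p below 0.05, 2 were higher and 1 was lower (6.56% and 6.60% of all genes). The gene that rose was Mtrf1, which encodes a release factor that ends mitochondrial translation. It gave 5.51, 5.55, 4.92 and 5.26 in wild type and 6.02, 6.76, 6.32 and 6.64 in transgenic cells, a 2.18-fold rise (log2 1.12, SE 0.19, limma adjusted p = 0.0209) from a dim level that leaves its size uncertain. Without wild-type replicates 1, 3 or 4 or transgenic replicate 2 it did not pass (limma adjusted p = 0.0539, 0.0639, 0.0625 and 0.0524), nor with no variance moderation (0.139). The elongation factor Gfm1 was at 0.45 (SE 0.16), and the lowest were Oxa1l, which inserts new chains into the inner membrane (-0.27, SE 0.12), and the initiation factor Mtif3 (-0.23, SE 0.25). Of 19 aminoacyl-tRNA synthetase genes 0 passed limma (4 higher and 1 lower at an unadjusted p below 0.05), with a median of 0.097. Rars2 and Yars2 were at 0.53 (SE 0.18) and 0.85 (SE 0.30), and Sars2 and Cars2 at -0.39 (SE 0.17) and -0.12 (SE 0.13).

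Beside these, 79 nuclear genes of the respiratory chain and ATP synthase and 65 cytosolic ribosomal protein genes were set for comparison. The respiratory chain genes had a median of 0.10 and 57 were positive. At an unadjusted p below 0.05, 12 of the 79 were higher and 1 was lower (6.56% and 6.60% of all genes). For 7 of them all transgenic arrays lay above all wild-type arrays (4.00% of all genes). By limma 1 rose, against 1.69% of all genes called, namely Ndufs3 of complex I (6.15, 6.30, 5.94 and 6.29 against 6.51, 7.03, 6.97 and 6.94, difference 0.69, SE 0.14, limma adjusted p = 0.0430). That call held without transgenic replicate 1 (adjusted p = 0.0264) and was lost without any other single array (0.0717 to 0.123 in limma) and with trended or no moderation, array weights and both other scalings. Ndufc2 was at 0.49 (SE 0.14), Cox7a1 at -0.73 (SE 0.24) and Atp5b at -0.26 (SE 0.15). On wild-type replicate 3 the median respiratory chain gene lay 0.12 below its wild-type mean, as the ribosomal members did. The cytosolic ribosomal protein genes had a median of 0.013 with 37 positive, and 0 passed limma (1 higher and 0 lower at an unadjusted p below 0.05). Rpl22 was at 0.25 (SE 0.092), Rps15 at 0.49 (SE 0.23), Rpl29 at -0.20 (SE 0.14) and Rpl7a at -0.17 (SE 0.11). Their medians on the single arrays ranged from -0.022 to 0.056.

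**Figure D5:**
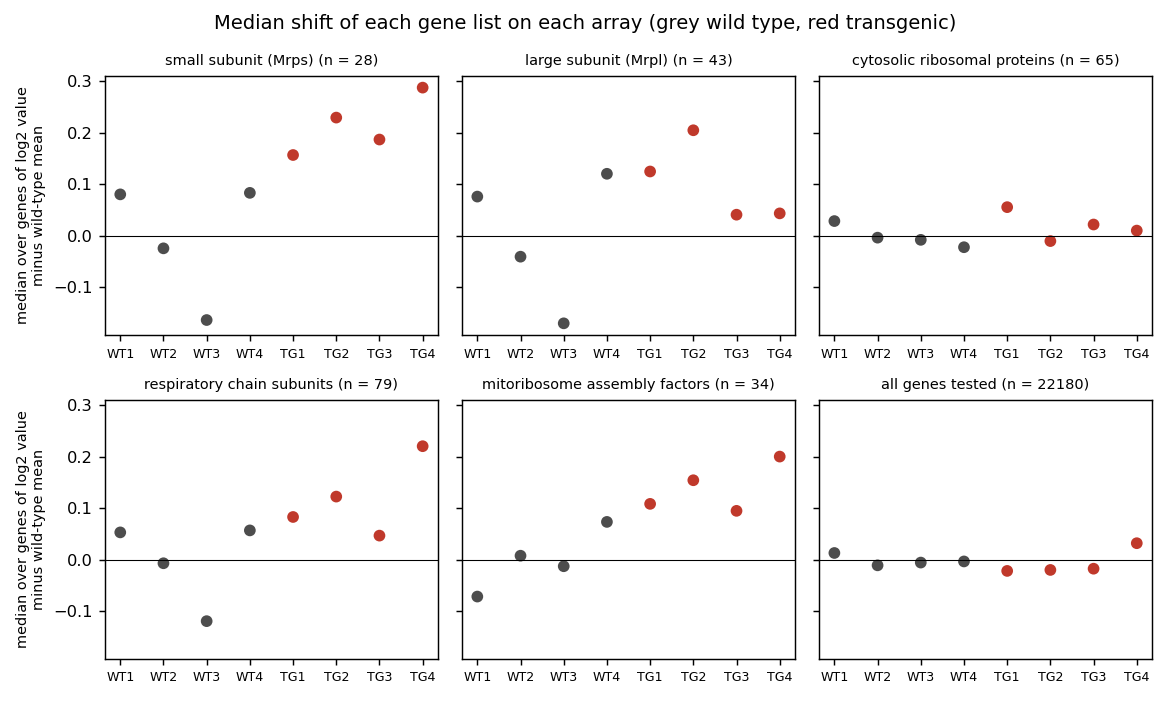
Median over the genes of a list of the log2 value minus the wild-type mean (vertical axes, log2) on each array (WT1 to WT4 grey, TG1 to TG4 red) for 6 lists. For Mrps the transgenic medians (0.16 to 0.29) lie above the wild-type medians (-0.16 to 0.084). The same holds for the assembly factors (0.095 to 0.20, against -0.072 to 0.073). For Mrpl the groups overlap, and for cytosolic ribosomal proteins every array lies between -0.022 and 0.056.

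Markers of other cells were read on the same arrays. Mki67, a proliferation marker, fell from 7.85, 8.29, 8.17 and 8.49 to 7.51, 7.33, 6.47 and 6.96 (difference -1.13, SE 0.22, limma adjusted p = 0.0350), the only call among 16 cell cycle genes. Of these 6 were positive and 10 negative, with 1 higher (Mcm6, 0.39, SE 0.15, limma adjusted p = 0.284) and 1 lower at an unadjusted p below 0.05, and replication genes such as Mcm2 (0.32, SE 0.14) and Pcna (0.28, SE 0.16) were on the positive side. The mean level of the list was 6.36 to 6.72 in wild-type and 6.10 to 6.84 in transgenic arrays. Klrd1 rose (2.84-fold, limma adjusted p = 0.00644) as 1 of 9 natural killer and innate lymphoid genes (list mean level 6.52 to 7.71 and 7.00 to 8.14), Adgre1 (2.44-fold, adjusted p = 0.0128) as 1 of 10 macrophage and monocyte genes (5.95 to 6.29 and 6.17 to 7.16) and Bst2 (1.70-fold, adjusted p = 0.0204) as 1 of 7 plasmacytoid dendritic cell genes (6.15 to 7.01 and 6.57 to 7.96). Over all genes 1.69% were called and 49.7% were positive. Positive were 9 of 9 natural killer, 7 of 10 macrophage and 6 of 7 plasmacytoid genes, with medians of 0.30, 0.21 and 0.49. None of 7 B cell, 6 T cell and 7 CD11b- cDC genes passed limma, and 4, 1 and 1 of these were positive. At an unadjusted p below 0.05, 2 CD11b- cDC genes were lower, and no others of these 3 lists differed. Transgenic replicate 2, on which the median Mrpl gene was highest, also had the highest mean level of the cell cycle, natural killer, macrophage, plasmacytoid and CD11b- cDC lists. Those levels were 6.84, 8.14, 7.16, 7.96 and 7.81 in that order. The median Mrps gene was highest on transgenic replicate 4, where the levels were lower (6.34, 7.18, 6.43, 6.64 and 6.57). Array values do not reach 0, and fewer cells of a type cannot be told apart from less RNA per cell. The part of these markers in the members' differences was not tested.

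The promoters of members were read for sites of factors known to act on genes of mitochondrial proteins, since many members shared the sign of their difference. RefSeq windows (GRCm38.p6) of the 250 bases before an annotated transcription start were listed for 62 of the 71 members, 68 windows in all. No window was listed for Mrpl4, Mrpl13, Mrpl15, Mrpl19, Mrpl38, Mrpl54, Mrps28, Mrps34 and Mrps35. The letters searched, on both strands, were CGCATGCG for NRF1, CCGGAAG for ETS factors such as GABPA, AAGATGGCG for YY1 and CACGTG, the E-box that MYC binds. Printed here are 6 members with 1 window each, 4 from the top and 2 from the bottom of the order by moderated statistic, 5′ to 3′ on the gene's strand, with matches in capitals. They are Mrpl51 (chr6:125191950-125192199, strand +), Mrps9 (chr1:42850983-42851232, strand +), Mrps18b (chr17:35916441-35916690, strand -), Mrpl3 (chr9:105053018-105053267, strand +), Mrpl9 (chr3:94443086-94443335, strand +) and Mrpl45 (chr11:97315466-97315715, strand +).
Mrpl51: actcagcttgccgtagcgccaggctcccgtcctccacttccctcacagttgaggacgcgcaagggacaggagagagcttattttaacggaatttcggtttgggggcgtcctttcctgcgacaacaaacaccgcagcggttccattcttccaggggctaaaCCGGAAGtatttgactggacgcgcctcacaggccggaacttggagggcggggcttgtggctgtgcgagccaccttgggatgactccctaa
Mrps9: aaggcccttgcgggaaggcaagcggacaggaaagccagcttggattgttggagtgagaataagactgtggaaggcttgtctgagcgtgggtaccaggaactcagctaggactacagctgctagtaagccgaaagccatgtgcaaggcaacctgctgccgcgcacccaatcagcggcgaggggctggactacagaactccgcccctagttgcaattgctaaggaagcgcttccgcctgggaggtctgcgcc
Mrps18b: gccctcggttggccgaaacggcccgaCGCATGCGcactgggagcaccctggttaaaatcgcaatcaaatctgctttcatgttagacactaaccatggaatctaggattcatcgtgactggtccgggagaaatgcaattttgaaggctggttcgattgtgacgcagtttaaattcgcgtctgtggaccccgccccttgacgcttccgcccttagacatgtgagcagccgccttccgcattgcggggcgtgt
Mrpl3: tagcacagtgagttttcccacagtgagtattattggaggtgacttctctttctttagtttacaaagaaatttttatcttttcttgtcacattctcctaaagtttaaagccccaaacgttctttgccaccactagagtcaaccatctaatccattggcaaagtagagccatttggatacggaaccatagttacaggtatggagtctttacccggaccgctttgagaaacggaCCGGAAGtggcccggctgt
Mrpl9: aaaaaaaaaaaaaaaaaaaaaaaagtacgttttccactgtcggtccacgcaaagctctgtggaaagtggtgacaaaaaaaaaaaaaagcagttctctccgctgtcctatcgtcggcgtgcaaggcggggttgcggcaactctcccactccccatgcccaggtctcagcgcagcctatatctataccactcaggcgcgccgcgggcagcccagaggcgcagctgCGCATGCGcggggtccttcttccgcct
Mrpl45: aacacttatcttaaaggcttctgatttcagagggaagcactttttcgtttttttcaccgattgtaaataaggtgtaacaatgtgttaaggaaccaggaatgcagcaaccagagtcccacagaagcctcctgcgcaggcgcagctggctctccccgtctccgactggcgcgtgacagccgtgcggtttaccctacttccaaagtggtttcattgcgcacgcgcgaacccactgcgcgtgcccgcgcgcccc
The ETS letters began 90 bases before the start in Mrpl51 and 19 bases before it in Mrpl3. The NRF1 letters began 224 bases before the start in Mrps18b and 27 bases before it in Mrpl9, whose differences had opposite signs. No matches overlapped in these windows, and Mrps9 and Mrpl45 held none of the letters.

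Over all member windows, the ETS letters were in 6 of 26 Mrps windows (23.1%) and 10 of 42 Mrpl windows (23.8%), against 6.91% of all 32851 windows and 8.98% of those of protein-coding genes. The NRF1 letters were in 3.85% of Mrps and 14.3% of Mrpl windows (1.55% of all and 2.06% of protein-coding windows). The YY1 letters were in 1 Mrps and 1 Mrpl window (3.85% and 2.38%, against 0.606% of all). The E-box was in 3.85% of Mrps and 14.3% of Mrpl windows (6.02% of all), but 3 of these 6 Mrpl windows belong to Mrpl2, so that 4 of 37 Mrpl genes held it. Members with the ETS letters had a median difference of 0.23 (16 genes, 12 positive) and those without had 0.11 (46 genes, 36 positive). With the NRF1 letters the median was 0.091 (7 genes, 4 positive) and without them 0.15 (55 genes, 44 positive). For the E-box it was 0.23 with (5 genes, 5 positive) and 0.12 without (57 genes, 43 positive). For the YY1 letters it was 0.28 with (2 genes, 2 positive) and 0.12 without (60 genes, 46 positive). These are matches of letters in a window and describe no binding. Bases at and after the start were not searched, so sites there are not counted. Of the genes of such factors and their coactivators, 13 were measured and 0 passed limma (1 higher and 1 lower at an unadjusted p below 0.05). Pprc1, a coactivator of NRF1, was at 0.48 (SE 0.13) and Myc at 0.47 (SE 0.22), while Gabpb1, a subunit of the GABP factor, was at -0.29 (SE 0.11) and Sp1 at -0.26 (SE 0.14).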

How the data were processed

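RNA (2.5 ng) of sorted cells was amplified and hybridised to 8 arrays, per the labels' protocols. The deposited log2 values per probe set were made by the authors; the submitters' processing notes name RMA and Partek. The sources used here name no version of either, no filter and no build of the genome. RMA makes the distributions of arrays alike, so a shift of all genes together would not be seen. Arrays have no read depth, and the 4 arrays of a group limit the precision.

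Of 34390 probe sets, 23521 name 1 gene in the platform annotation, 1814 several and 9055 none. The first kind was used, with the brightest probe set for the 1082 genes with several, and no filter. A probe set's level depends on its probes, so no expression level was compared between genes; means over arrays served only to pick probe sets and, in each subunit, which genes to describe. Transgenic minus wild type was tested in limma 3.58.1 (R 4.3.3; functions lmFit and eBayes) and adjusted by Benjamini-Hochberg over 22180 genes, with errors as SD over arrays or moderated SE. The fit was checked on simulated data with independent noise, equally spread on all arrays. Those simulated data held no deviating array and no genes that moved together, unlike the data here. Arrays were treated as unpaired in the main fit. Same-numbered arrays deviated with correlations of -0.032, -0.028, 0.079 and -0.018 over genes, which cannot show whether the pools were paired. No batch is named in the labels.

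Members and lists were chosen with earlier results of these data known. Members named by rule were those past the threshold, the 5 highest and 5 lowest moderated statistics and the 3 brightest probe sets of each subunit, and members with known special roles. From each list of mitochondrial or ribosomal genes came those past the threshold and the 2 highest and 2 lowest statistics. Other genes were named after their values were seen. Alternatives were other variance moderation, filters, scalings, probe set rules, array weights (statmod 1.5.0), a replicate block and leaving out each array. Promoter windows were searched, and figures drawn, with Python 3.11.15 and matplotlib 3.10.9.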

Additional observations from a re-analysis of the deposited data

Results flagged for a closer look

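In each of the 142 groups of 4 arrays (71 members, 2 genotypes) the highest and lowest array were compared with the nearest of the others. In 4 groups (2.82%) the gap was above the 95% limit of Dixon's test, and chance alone gives about 1 in 20. Mrpl22 was at 6.57 on transgenic replicate 4 and at 6.11 to 6.17 on the other transgenic arrays. Mrpl27 was at 4.88 on transgenic replicate 2 and at 5.67 to 5.76 on the others of its group. Mrpl52 was at 10.12 on transgenic replicate 2, above 9.41 to 9.52. Mrpl46 was at 7.22 on wild-type replicate 4, above 6.76 to 6.78.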

How the results depend on the processing

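The Mrps count of 1 call became 0 with no variance moderation and with the replicate block, 3 (Mrps9, Mrps18b and Mrps35) at an adjusted p threshold of 0.10, and 0 to 2 when single arrays were left out. The Mrpl count of 0 became 1 (Mrpl51) at that threshold and was otherwise 0. The count over all genes, 374, was 35 with no variance moderation, 187 with the replicate block, 747 at the threshold of 0.10 and 106 to 379 without single arrays. With the replicate block, Mrps35 and Ndufs3 did not pass limma (adjusted p = 0.0820 and 0.0812). The block is balanced and cannot change the differences or their medians. Over all alternatives the adjusted p of Mrps35 ran from 0.0150 to 0.135, and its difference from 0.79 to 1.03. The Mrps median ran from 0.12 (without wild-type replicate 3) to 0.25 and the Mrpl median from 0.065 to 0.18. Both stayed positive under the filters, scalings, probe set rules and array weights tried, and without any single array. Variance moderation and the block leave every difference unchanged, so they are no check of the medians.

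Of the single genes followed, 6 members changed sign, none of them past the threshold in any fit, and the cause was not tested. Without single arrays Mrpl52 ran from -0.088 to 0.15, Mrpl54 from -0.34 to 0.053, Mrps21 from -0.064 to 0.14, Mrps30 from -0.098 to 0.12, Mrps18a from -0.24 to 0.068 and Mrps24 from -0.18 to 0.030. Mrps30 was also at -0.028 after quantile normalization again. A median SE of 0.17 per member and dim probe sets (10 of 71 members had a mean under 6) limit what can be seen.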
